A study of Mus musculus with 2 samples.

Results

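The microRNA genes Mir322, Mir503, Mir351, Mir542, Mir450a-2, Mir450a-1 and Mir450b lie close together on the X chromosome of the mouse, and their levels were read in growing calf muscle. They were taken by name and position, not by their values, and are 7 of the 2202 microRNA genes counted. The tissue was gastrocnemius of male mice at 14 days of age from the cross B6CASTF1/J, whose parents are of the C57BL/6 and CAST strains, with no treatment in the labels. There was 1 group of 2 biological replicates with 1 small RNA library each, made from RNA under 30 bases, so levels could be described and the replicates compared, but no condition was set against another. One donor identifier stands on both labels, which also speak of several males. The labels do not say whether a replicate is an animal or a pool, so every spread below is between these 2 samples and may be partly technical. A male has a single X chromosome, from its mother. The labels bear on her strain only through the name of the cross, in which C57BL/6 stands first. The reads were placed on mm10, a C57BL/6 genome.

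A microRNA is cut from a hairpin in a longer transcript, and a short mature strand of it is loaded into an Argonaute protein, which it guides to messenger RNAs. Bases 2 to 8 of the mature strand, the seed, choose most targets. MicroRNAs encoded close together on the same strand are often made from a common transcript, and their levels can still differ because each hairpin is cut, loaded and degraded at its own rate. The array studied here is known from skeletal muscle for miR-322 (miR-424 in humans) and miR-503, which are induced as myoblasts differentiate and promote their exit from the cell cycle by repressing the phosphatase gene Cdc25a.

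All 7 genes are on the minus strand of chromosome X within 6.35 kb, from 53047997 to 53054349 on mm10, between the protein-coding genes Hprt and Plac1. In the direction of transcription Mir322 comes first (ENSMUSG00000065418.1, 53054255 to 53054349), 200 bases before Mir503 (ENSMUSG00000076122.1, 53053984 to 53054054), and Mir351 follows after 630 bases (ENSMUSG00000065503.1, 53053255 to 53053353). A gap of 3767 bases, in which GENCODE vM21 has the gene Gm28730 (53051194 to 53053159), leads to Mir542 (ENSMUSG00000076140.1, 53049403 to 53049487). After another 1035 bases come Mir450a-2 (ENSMUSG00000076399.1, 53048299 to 53048367), Mir450a-1 (ENSMUSG00000065486.1, 53048154 to 53048244) and Mir450b (ENSMUSG00000076050.1, 53047997 to 53048078), which are 54 and 75 bases apart. The annotation spells Mir450a-2 and Mir450a-1 as Mir450-2 and Mir450-1. In GENCODE vM21 none of the 7 overlaps another gene, and the non-coding gene C430049B03Rik ends 696 bases upstream of Mir322. In RefSeq on the same build C430049B03Rik runs from 53057190 to 53053112, and Mir322, Mir503 and Mir351 lie within its bounds, whether in exons or introns was not read here.

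The mature sequences show which of these microRNAs read the same target letters. RefSeq (GRCm38.p6) held mature sequences for all 7 genes, 21 to 24 bases long, and they are printed 5′ to 3′ with the seed, bases 2 to 8, in capitals. The first set is that of Mir322 and Mir503 beside miR-497a-5p, miR-195a-5p, miR-15a-5p and miR-16-5p, members of the miR-15/16 family encoded on other chromosomes:
miR-322-5p: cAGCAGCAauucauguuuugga
miR-497a-5p: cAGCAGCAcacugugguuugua
miR-195a-5p: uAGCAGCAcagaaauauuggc
miR-15a-5p: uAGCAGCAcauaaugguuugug
miR-16-5p: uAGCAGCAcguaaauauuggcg
miR-503-5p: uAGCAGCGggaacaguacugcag
The seed of miR-322-5p is that of the miR-15/16 family, and miR-322-5p is identical to miR-497a-5p over its first 8 bases. The seed of miR-503-5p matches it at 6 of 7 positions. Its bases 2 to 7, AGCAGC, begin the seeds of 12 of the 1738 mature entries in the RefSeq set, itself included. That set lists miR-16-5p once for each of its genes. The second set is miR-351-5p beside miR-125a-5p and miR-125b-5p, of the family of the developmental timing microRNA lin-4, whose seed it has:
miR-351-5p: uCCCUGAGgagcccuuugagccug
miR-125a-5p: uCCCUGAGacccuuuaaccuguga
miR-125b-5p: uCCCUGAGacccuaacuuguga
Shared seeds were looked for among the 1018 counted genes with a RefSeq mature sequence. In the third set, miR-542-3p, known to target the survivin gene Birc5, has a seed found in no other of these genes. This set is the far end of the array, and its miR-450 strands resemble each other:
miR-542-3p: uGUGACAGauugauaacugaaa
miR-450a-5p: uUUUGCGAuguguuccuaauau
miR-450b-5p: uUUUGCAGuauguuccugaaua
miR-450a-1-3p: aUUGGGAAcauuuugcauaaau
miR-450b-3p: aUUGGGAAcauuuugcaugcau
miR-450a-2-3p: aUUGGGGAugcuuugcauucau
The 3p strands of Mir450a-1 and Mir450b have the same seed and 20 of 22 bases in common, while their 5p strands match at 15 of 22 positions.

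Mir450a-1 and Mir450a-2 both encode miR-450a-5p, which bears on how they were counted. A read that maps to several places is in no gene's count in these tables. The RefSeq hairpins of both genes are printed with the stretch they have in common in capitals:
Mir450a-1 hairpin: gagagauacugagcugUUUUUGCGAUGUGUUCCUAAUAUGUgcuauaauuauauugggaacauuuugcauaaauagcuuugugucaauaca
Mir450a-2 hairpin: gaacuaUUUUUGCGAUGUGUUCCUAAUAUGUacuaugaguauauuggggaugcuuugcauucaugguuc
That stretch is 25 bases long and holds the whole of miR-450a-5p, so a read within it cannot be assigned to either gene. The counts of Mir450a-1 and Mir450a-2 therefore leave out such reads, by an amount that the tables do not give. The longest stretch of Mir450b in common with another of the 2202 annotated hairpins is 19 bases, with Mir450a-1, which is shorter than its mature strands. For Mir322, Mir503, Mir351 and Mir542 it is 11 to 13 bases. Matches elsewhere in the genome were not searched.

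Values are own-strand read counts and CPM (counts-per-million), the count scaled to the sum over all microRNA genes. The libraries held 2743657 such counts in replicate 1 and 2211254 in replicate 2, 27.3% and 27.0% of their reads, while 44.0% and 52.1% of reads mapped to several places and stayed out. A read spans a whole mature strand, so CPM was not divided by hairpin length, and the counts do not separate the 5p from the 3p strand. Of the microRNAs that mark tissues, 9 of 9 skeletal muscle genes had a count and held 6.94% ± 0.0227 of assigned counts (SD, n = 2). Nearly all of this share was Mir206, at a mean of 68098.6 CPM, against 69374.5 CPM for the whole list. The liver gene Mir122 held 0.0120% and 3 leukocyte genes 0.0663%, and the 6 neuronal genes of miR-124 and miR-9 had 0 counts in replicate 1 and 1 in replicate 2. Reads that map to several places are in none of the marker counts, and how many reads of each list that removed was not tested. A low count, such as that of the neuronal genes, therefore does not show that a microRNA was absent. The epithelial list of 6 genes held 0.0148%, the heart gene Mir208a had 7 counts in replicate 1 and 0 in replicate 2, and the erythroid genes Mir451a and Mir144 held 0.0384% in replicate 1 and 0.0571% in replicate 2. Intervals are exact 95% Clopper-Pearson intervals or derived from them, and cover counting error only, since copies made by PCR are not independent molecules.

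Together the 7 genes held 1.75% of assigned counts in replicate 1 (interval 1.73 to 1.76) and 1.74% in replicate 2 (1.72 to 1.75), 1.74% ± 0.00722 (SD, n = 2). Their sum was thus nearly equal in the replicates, and Mir322 made up most of it. Mir322, Mir503 and Mir351 held 1.62% ± 0.00516 of assigned counts, and the 4 genes beyond the long gap 0.116% ± 0.0124. All 7 genes had counts in both libraries, 6 reached 10 CPM in both and 5 reached 100 CPM in both. Of all 2202 genes 629 had a count in either library, 258 reached 10 CPM in both and 178 reached 100 CPM in both. On the strand opposite to each gene the count was 0 in both libraries, and as a limit for a count of 0, apart from the two-sided intervals, 3 counts were taken, or 1.09 CPM and 1.36 CPM in the order of the replicates.

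Mir322, the myoblast cell cycle exit microRNA, had 35395 counts in replicate 1, or 12901 CPM, and 29740 in replicate 2, or 13449 CPM, with a mean of 13175 CPM ± 388. It ranked 19 of 2202 by mean CPM and made up 73.9% of the array's counts in replicate 1 and 77.5% in replicate 2. Reads that map to several places are in no gene's count, so this rank and those below hold for assigned counts only. Mir503, 200 bases downstream and known for the same action, had 816 counts (297 CPM) and 538 (243 CPM), a mean of 270 CPM ± 38.3. It ranked 126, and the values of these neighbours did not overlap. Mir351, which has the miR-125 seed, had 8270 counts (3014 CPM) and 5733 (2593 CPM), a mean of 2803 CPM ± 298 at rank 48. In position it follows Mir503, and in level it was the next after Mir322.

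Mir542, first of the far block, had 2921 and 1913 counts (1065 and 865 CPM, replicate 1 first), with a mean of 965 CPM ± 141 at rank 77. Mir450b, the last gene, had 441 counts (161 CPM) and 399 (180 CPM), a mean of 171 CPM ± 13.9 at rank 152. Between them in position, the miR-450a genes were the lowest of the array. Mir450a-1 had 44 and 43 counts (16.0 and 19.4 CPM) and Mir450a-2 had 25 and 23 (9.11 and 10.4 CPM), and both leave out the reads of the common stretch shown above. Mir450a-1 ranked 243 and Mir450a-2 ranked 272.

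By CPM the order of levels was Mir322, Mir351, Mir542, Mir503, Mir450b, Mir450a-1 and Mir450a-2, in both libraries. For each of the 6 pairs of neighbours in that order the values of the 2 libraries did not overlap. The step closest to overlap as a ratio was between Mir503, whose lower value was 243 CPM, and Mir450b, whose higher value was 180 CPM. The place of the miR-450a genes in the order rests on counts that lack the reads of miR-450a-5p.

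**Figure D1:**
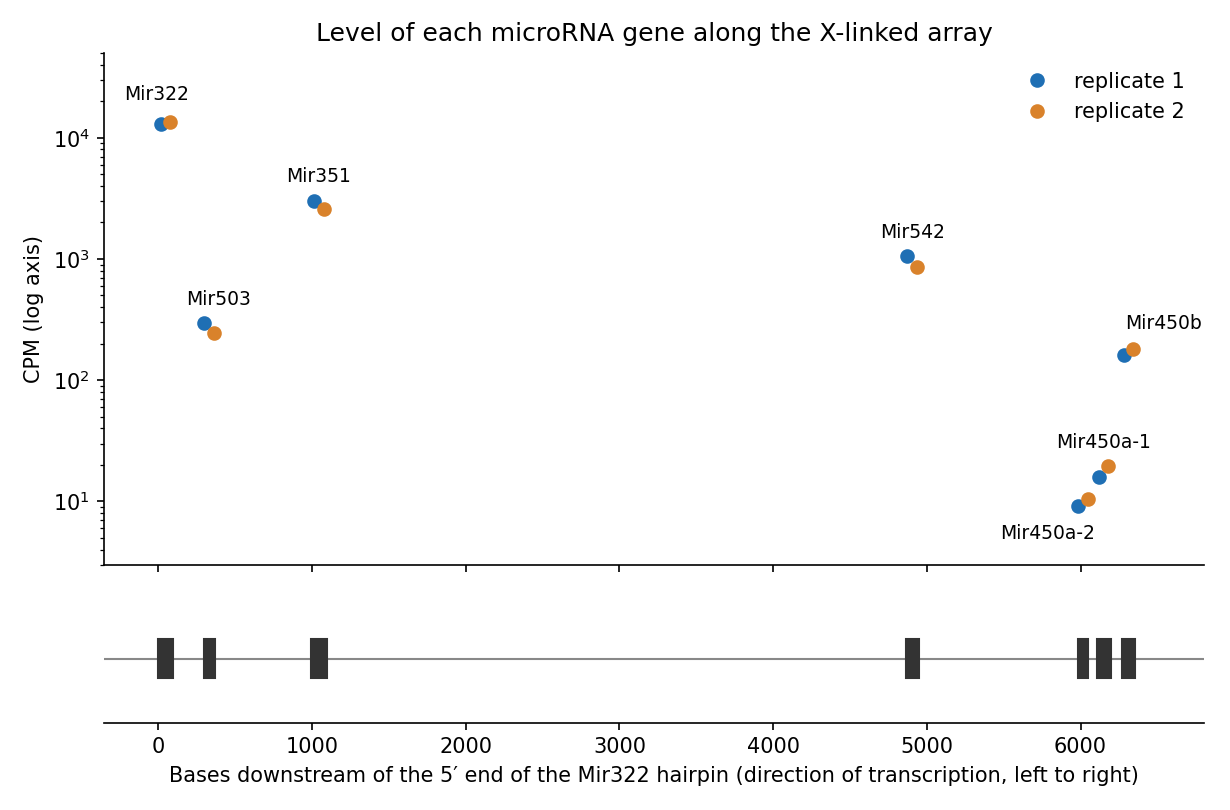
The upper panel plots CPM (log axis) of each microRNA gene against its distance in bases from the 5′ end of the Mir322 hairpin, with 1 point for each library, and the lower panel draws the hairpins to scale. Mir322 stands at 12901 and 13449 CPM, and Mir503, after a gap of 200 bases between the hairpins, at 297 and 243 CPM. The lowest gene, Mir450a-2, is at 9.11 and 10.4 CPM.

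**Figure D2:**
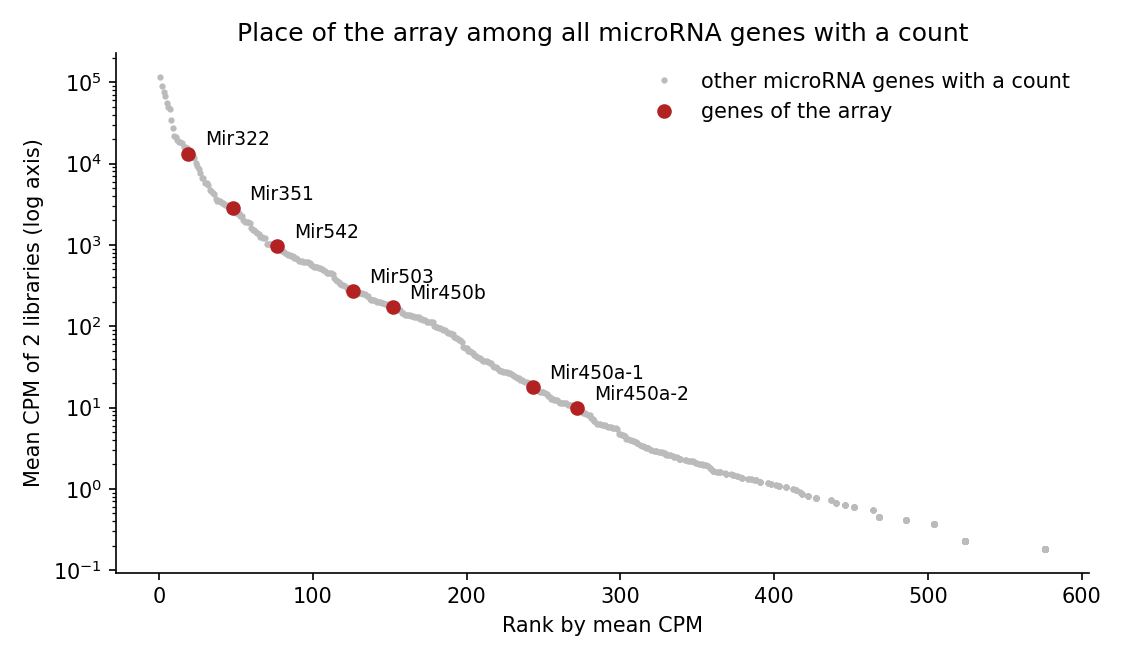
Mean CPM of the 2 libraries (log axis) is plotted against rank for every microRNA gene with a count (grey) and for the 7 genes of the array (red). The array runs from rank 19 (Mir322) to rank 272 (Mir450a-2) of 2202 by assigned counts.

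Ratios within a library need no scaling between libraries, and they showed how unequal the hairpins of the array were. Mir322 was 4.28 times Mir351 in replicate 1 (interval 4.18 to 4.38) and 5.19 times in replicate 2 (5.04 to 5.34), 4.73 ± 0.642 (SD, n = 2). It was 12.1 times Mir542 in replicate 1 (11.7 to 12.6) and 15.5 times in replicate 2 (14.8 to 16.3). It was 43.4 times Mir503 (40.5 to 46.5) and 55.3 times (50.8 to 60.3). For these 3 genes the intervals of the libraries did not overlap, and the ratio was higher in replicate 2 each time.

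For the end of the array they did overlap. Mir322 was 80.3 times Mir450b in replicate 1 (73.1 to 88.4) and 74.5 times in replicate 2 (67.5 to 82.5). The counted ratio to Mir450a-1 was 804 and 692, and to Mir450a-2 it was 1416 and 1293, ratios that lack the reads of miR-450a-5p. Among the other genes, Mir542 was 3.58 times Mir503 in replicate 1 (3.31 to 3.87) and 3.56 times in replicate 2 (3.23 to 3.92), so these genes on either side of the long gap kept almost the same ratio. Mir351 was 10.1 and 10.7 times Mir503, with overlapping intervals too. Mir542 was 6.62 times Mir450b in replicate 1 (5.99 to 7.34) and 4.79 times in replicate 2 (4.30 to 5.35), which did not overlap.

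**Figure D3:**
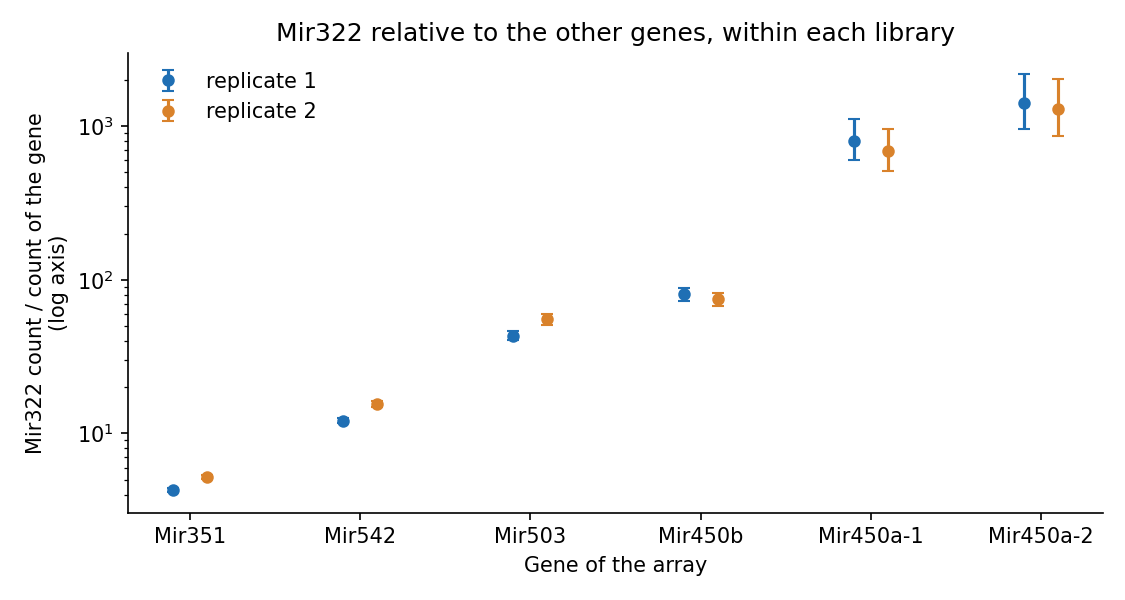
The count of Mir322 divided by the count of each other gene of the array (log axis) is plotted for each library, with exact 95% intervals that cover counting error. The ratio runs from 4.28 and 5.19 for Mir351 to 1416 and 1293 for Mir450a-2, and the intervals of the libraries are apart for Mir351, Mir542 and Mir503.

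The replicates were then compared gene by gene over the 258 microRNA genes that reached 10 CPM in each library, with an exact binomial test on library sizes scaled by the trimmed mean of M-values (TMM) and Benjamini-Hochberg adjustment. It tests these 2 libraries against each other, and its p-values hold no spread beyond counting error. Of all tested genes 50.8% passed, and 3 of the 6 tested genes of the array did, a share near that of the table with these settings. All 3 were lower in replicate 2, as were 31.8% of all tested genes. Log2 ratios are replicate 2 minus replicate 1 on log2(CPM + 1). In bulk RNA, fewer cells of a type and less RNA per cell cannot be told apart.

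Mir351 was lower in replicate 2 at a log2 ratio of −0.26 (adjusted p = 8.8e-26 by the exact binomial test), as were Mir542 at −0.35 (adjusted p = 1.53e-15) and Mir503 at −0.34 (adjusted p = 8.35e-05). They ranked 201, 225 and 221 of 258 from the highest ratio. No gene of the array differed 2-fold, and 1.16% of all tested genes did. Mir322 stood at 0.01 (adjusted p = 0.338 by the exact binomial test), Mir450b at 0.12 (adjusted p = 0.338) and Mir450a-1, on 44 and 43 counts, at 0.22 (adjusted p = 0.57), and these did not pass. Mir450a-2 was not tested, since it was under 10 CPM in replicate 1. The median log2 ratio of the 6 genes was −0.13, and that of all 258 was −0.04. The array's median depended on which of its genes were admitted, at −0.26 over the 5 genes at 100 CPM, 0.01 over 7 with reads on either strand and 0.01 over 7 with no minimum level. The median size of the ratio, without its sign, was 0.24 for the array and 0.18 for all.

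The scaling decided 1 of these calls. With library sizes from total assigned counts Mir322 was higher in replicate 2 by 0.06 (adjusted p = 4.66e-07 by the exact binomial test), and over the whole table the split was then 67 higher and 66 lower, against 49 and 82 with TMM. Mir351, Mir542 and Mir503 were lower in replicate 2 under each scaling tried. Among the tissue markers, both erythroid genes were higher in replicate 2 by the same test (Mir451a 0.53, Mir144 0.51). Of the 6 epithelial genes only Mir203 was tested, and it was lower (−0.43). Among the untested ones, Mir200c had 27 and 38 counts (replicate 1 first), Mir429 3 and 9 and Mir141 0 and 3. Mir200b had 4 in each library and Mir200a 1 and 0. Mir203 alone therefore does not give a direction for the epithelial list. Of the 7 tested muscle markers 2 were higher and 2 lower. Mir122 and the 3 leukocyte genes did not pass. The part of such cells in the array's differences was not tested.

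**Figure D4:**
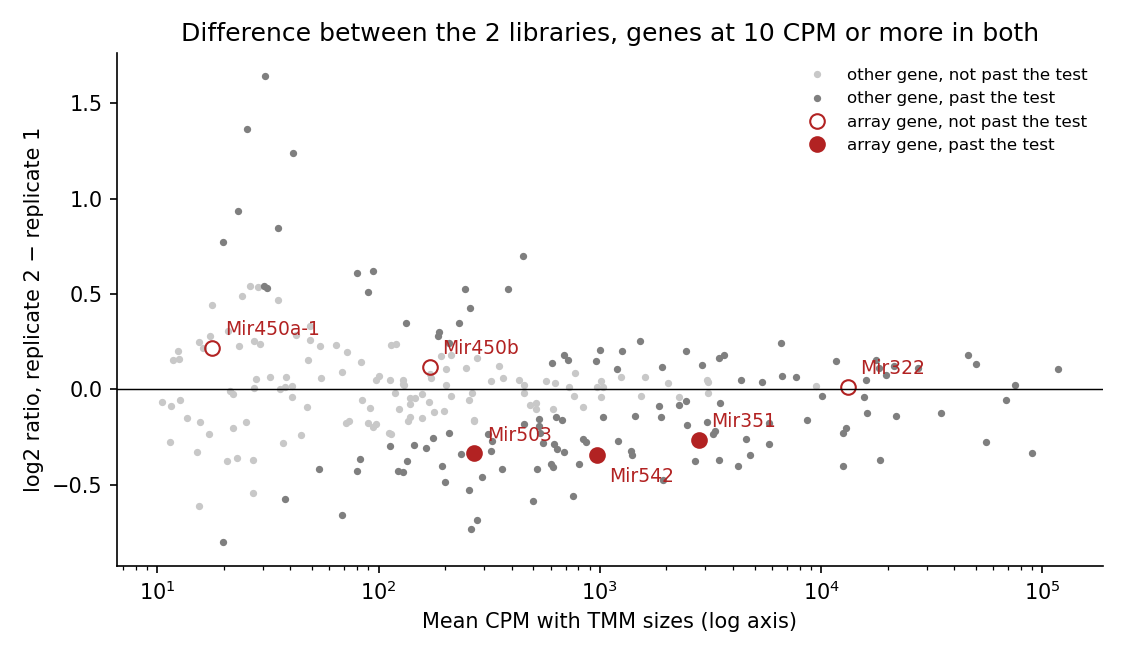
The log2 ratio of replicate 2 to replicate 1 is plotted against mean CPM (log axis) for 258 microRNA genes, grey for other genes and red for the array, with filled red points for array genes past the exact binomial test. Mir503, Mir542 and Mir351 lie at −0.34, −0.35 and −0.26, and Mir322, Mir450b and Mir450a-1 at 0.01, 0.12 and 0.22.

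Genes elsewhere that encode the seed of miR-322-5p were compared in level. That seed was found in 10 other genes of the table, and 6 of them had a count. Mir195a was at 2202 and 1638 CPM (replicate 1, then 2), and Mir497 of the same family was at 674 and 530 CPM. Mir15a had 1099 and 903 CPM, Mir15b 711 and 741 CPM, Mir16-1 753 and 619 CPM and Mir16-2 163 and 151 CPM. Each was below Mir322 in both libraries. Mir16-1 and Mir16-2 encode an identical mature strand, so their counts too leave out reads that map to several places.

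Of the assigned counts of all 11 genes with this seed, Mir322 held 69.7% in replicate 1 and 74.6% in replicate 2, 72.2% ± 3.44 (SD, n = 2). These shares count both strands of each hairpin and lack the reads of miR-16-5p that fit both of its genes, so they do not give the share of the seed itself. The log2 ratios of Mir195a (−0.47), Mir497 (−0.39), Mir15a (−0.33) and Mir16-1 (−0.33) were past the exact binomial test and negative, while Mir15b (0.01) and Mir16-2 (−0.15) were not past it. Of all tested genes 50.8% passed and 31.8% were lower, and no shift of the family as such was tested. The seed of miR-503-5p was found in no other counted gene with a RefSeq mature sequence.

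For the seed of miR-351-5p there were 5 other genes, 3 of them with a count. Mir125a was at 2306 and 2250 CPM, below Mir351 at 3014 and 2593 CPM, and the values did not overlap. Mir125b-1 had 257 and 256 CPM and Mir125b-2 had 178 and 148 CPM. These 2 genes encode an identical mature strand and leave out reads that map to both. Mir351 held 52.4% of the counts of the genes with its seed in replicate 1 and 49.4% in replicate 2. As with Mir322, these shares count both strands of each hairpin and lack the miR-125b-5p reads that fit both of its genes. They do not give the share of the seed itself. The seeds of miR-542-3p, miR-450a-5p, miR-450b-5p and miR-450a-2-3p were found in no counted gene outside the array. Those of miR-542-5p and of the 3p strands of Mir450a-1 and Mir450b were each found in 1 further gene. These were Mir6966, with 0 counts in replicate 1 and 1 in replicate 2, and Mir6352, with 0 in both.

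**Figure D5:**
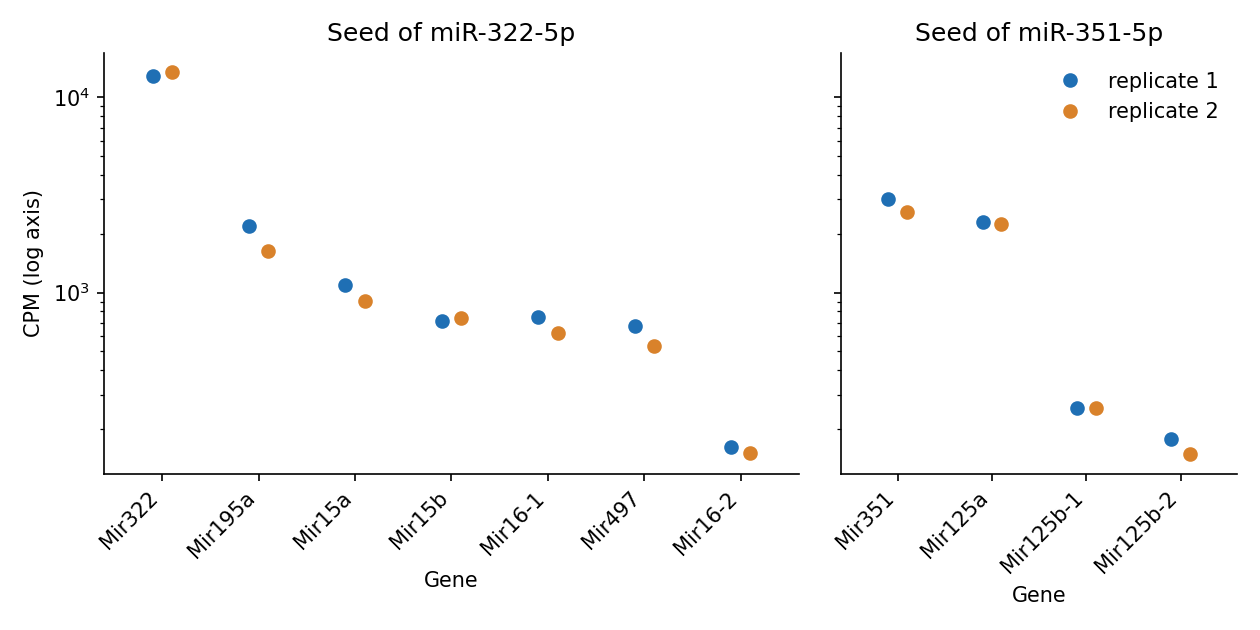
CPM (log axis) in each library is plotted for the genes with a count that encode the seed of miR-322-5p (left) and that of miR-351-5p (right). Mir322 is at 12901 and 13449 CPM and the next gene with its seed, Mir195a, at 2202 and 1638 CPM, while Mir351 at 3014 and 2593 CPM stands just above Mir125a at 2306 and 2250 CPM.

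The nearest other microRNA genes on the X chromosome were below Mir450b and the 4 more abundant genes of the array in both libraries, and at the level of the miR-450a genes or lower. Within 1 Mb of the array the annotation has 8 further microRNA genes, all on the same strand as the array. The closest are the 6 genes of the miR-106a-363 cluster, a paralog of the growth-associated miR-17-92 cluster, about 305 kb away. Mir92-2 had 10.9 and 12.7 CPM, Mir106a 8.02 and 10.4 CPM, Mir20b 5.83 and 6.78 CPM and Mir363 1.82 and 4.97 CPM. Mir18b had 2 counts in replicate 1 and 1 in replicate 2, and Mir19b-2 had 0 in both. Mir717 and Mir6384, 626 and 670 kb away, also had 0 counts in both libraries, with the limits given above. Mir92-2 and Mir19b-2 have close paralogs in other clusters, and how many of their reads mapped to several places was not tested.

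Other microRNAs known from myoblast growth and differentiation were read beside the array, from a list of 22 genes. All 22 had a count, against 629 of all 2202 genes, and 18 reached 10 CPM in both libraries, against 258 of all. Of these 18, 5 were higher and 4 lower in replicate 2 by the exact binomial test, with a median log2 ratio of 0.03. Of all 258 tested genes 19.0% were higher and 31.8% lower, and 50.8% passed in either direction, so the list was near the table as a whole. Mir206, the skeletal muscle microRNA that promotes differentiation, was 5.29 times Mir322 in replicate 1 and 5.05 times in replicate 2. Mir27b, which targets the progenitor factor Pax3, had 5236 and 4265 CPM, and Mir214, known from muscle progenitors and connective tissue, had 4738 and 3708 CPM, so both were below Mir322 in each library. Mir378a, the highest of the list by assigned counts, had 110946 and 123636 CPM. Reads that map to several places are in none of these counts, and how many reads of the list that removed was not tested.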

How the data were processed

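The authors deposited whole-number read counts per microRNA gene, 1 table per library, with 3 columns for reads on either strand, the gene's own strand and the opposite strand. Build mm10 and annotation M21 were used, per the labels and the text notes of each library. The aligner, the counter and the trimming are not given in the sources used here. All 2202 identifiers were found in GENCODE vM21, and 4 lines that name no gene (72.7% and 73.0% of reads) were left out. The own-strand column was used. TMM factors (edgeR 4.0.16, R 4.3.3) came from all gene rows, and exact binomial tests were run at 10 CPM or more in both libraries, at an adjusted p of 0.05, after a check on simulated data. With 1 library on each side no dispersion could be estimated. Sequences are from RefSeq, GRCm38.p6, and hairpins were compared with GENCODE transcripts. The genes named were the array, genes with a count and a seed of its mature strands, X-linked neighbours within 1 Mb, the 2 genes next above and below Mir322 in level and at most 4 of the myoblast list. Any further gene was picked with its values in view. The members and lists were chosen with earlier results of these data known. Ligation and amplification can favour some ends, which was not tested.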

Additional observations from a re-analysis of the deposited data

How the results depend on the processing

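No library could be left out of the comparison between replicates, and no paired analysis was possible because there was 1 group. The array's share of 1.74% was 2.27% with reads on either strand, which drops genes with a partner on the other strand from the total, 1.97% without the most abundant gene and 0.473% per all reads. Mir322 was at 17174, 14929 and 3576 CPM under the same settings. Each library alone gave a share of 1.74% to 1.75%, 12901 to 13449 CPM for Mir322 and 4.28 to 5.19 for its ratio to Mir351. Ratios within the array did not change with the strand counted, since no gene of it had a count on the other strand. In the comparison of replicates with no minimum level, 129 of 629 tested genes passed the exact binomial test, and 3 of 7 of the array, a higher share. With a minimum of 100 CPM 114 of 178 passed, and 3 of 5 of the array. With library sizes from total counts 133 of 258 passed, and 4 of 6 of the array. Across all the other settings 114 to 135 genes passed, and 3 or 4 of the array. The added 1 was Mir322 with total counts, with DESeq2 1.42.0 size factors (log2 ratio 0.05) and with TMM from the tested genes only (0.04), the last chosen after seeing the data. Mir503, Mir351 and Mir542 kept their sign and call in all 7 alternatives, and no ratio of a tested gene of the array changed sign. Depth limits Mir450a-1 and Mir450a-2, with 23 to 44 counts.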

Other observations

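On the X chromosome as a whole, 49 of 142 annotated microRNA genes had a count. Mir322 was the most abundant of them by assigned counts, and the array held 52.3% of assigned X-linked counts in replicate 1 and 49.7% in replicate 2. Reads that map to several places are left out, and how many X-linked reads that removed was not tested. The order and the shares hold for assigned counts only. The next genes were Mirlet7f-2, at a mean of 3635 CPM, and Mir98 at 2900 CPM, both of the let-7 family, and Mir351 came after them at 2803 CPM.

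By assigned counts, the genes closest to Mir322 in level were on other chromosomes. Just above were Mirlet7b at 15931 CPM ± 770 (1.21 times Mir322 by mean CPM over 2 libraries) and Mir487b of the imprinted Dlk1-Dio3 cluster at 15539 CPM ± 71.3 (1.18 times). Just below were Mir22, a microRNA of striated muscle, at 12977 CPM ± 980 (0.985 times) and Mir10b of the Hox clusters at 12561 CPM ± 2182 (0.953 times). Mir322 lay below Mir22 and Mir10b in replicate 1 and above both in replicate 2, so their order did not differ beyond the spread between the libraries.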
